A study of Mus musculus with 15 samples.

Results

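The 40 genes described here encode antioxidant proteins and targets of Nrf2, together with Nrf2 itself (Nfe2l2) and its inhibitor Keap1. They were taken by symbol from a table of 40481 genes, in all 15 libraries of RNA from the mouse RPE/choroid complex. All 40 were found, in 42 entries, because Gstp1 and Txnrd2 each had a second gene identifier that was listed at 0 in every library and was not used. The RPE/choroid complex is the retinal pigment epithelium (RPE) with the vascular layer beneath it. In 8 libraries the mice carried the INK-ATTAC transgene, which drives a fusion of FKBP and caspase 8 from the p16Ink4a promoter. AP20187 pairs the fusion protein and so kills any cell in which that promoter is active. The 7 control libraries came from mice with no transgene named in their labels. Both groups carried Abca1/Abcg1 flox/flox LysM-Cre, in which Cre from the Lyz2 gene removes these cholesterol transporters from myeloid cells. Both groups were labelled as given AP20187 by intraperitoneal injection, and the submitters describe 3 months of such dosing for the INK-ATTAC mice. Age, sex and the number of animals per library were not given in the labels, so p-values measure the spread between these libraries.

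Nrf2 is a transcription factor that Keap1 holds in the cytoplasm and marks for degradation. Oxidants and electrophiles modify Keap1, and Nrf2 then enters the nucleus, pairs with small Maf proteins and binds antioxidant response elements near genes of glutathione, thioredoxin, NADPH and quinone metabolism. The RPE faces light, a high oxygen supply and the daily uptake of photoreceptor outer segments, and these enzymes are among its main defences against peroxides.

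The sequence that Nrf2 binds holds the core TGACNNNGC, where N is any base. This core was searched on both strands of RefSeq promoter windows (build GRCm38.p6) that run from 250 bases before to 50 bases after each start of transcription. A window was listed for 34 of the 40 genes, and 12 of the 34 (35.3%) held the core, against 14% of the 27025 genes of the promoter table. Gclc, Gsr, Msra, Prdx6, Sod3 and Gsta4 had no window listed and were not searched. Nqo1 had a window without the core. Sequence outside the windows was not searched for any gene. The 12 matches are shown with 10 bases on either side, the core in capitals, on the strand where it reads TGAC. A match describes the letters only, and no binding was measured.
Nfe2l2: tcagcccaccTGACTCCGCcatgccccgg
Gclm: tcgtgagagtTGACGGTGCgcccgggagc
Txnrd1: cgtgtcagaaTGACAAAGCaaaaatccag
Srxn1: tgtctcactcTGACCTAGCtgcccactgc
Prdx1: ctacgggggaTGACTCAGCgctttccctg
Sod1: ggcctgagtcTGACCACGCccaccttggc
Gstm5: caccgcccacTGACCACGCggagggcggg
Mgst1: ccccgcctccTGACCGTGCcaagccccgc
G6pdx: gcgtgtgcttTGACTGAGCtgacccgcct
Pgd: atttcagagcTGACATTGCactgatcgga
Me1: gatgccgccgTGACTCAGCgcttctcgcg
Mt2: aaagggggtgTGACTCAGCgcggggggtg

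The cores of Prdx1, Me1 and Mt2 were the same 9 letters, TGACTCAGC, and Gstm5 and Sod1 shared TGACCACGC. Positions are counted from the RefSeq start listed for each window, which need not be the outer end of the gene. The core began at -240 in Nfe2l2, -134 in Gclm, -133 in Prdx1, -92 in Txnrd1, -79 in Mt2, -57 in G6pdx, -56 in both Sod1 and Mgst1, -42 in Gstm5 and -6 in Me1. In Pgd and Srxn1 it lay after the listed start, at 4 and 29. The Pgd core, at chr4:149166071-149166079, lies within a minus-strand gene whose span ends at 149166771. The whole windows are shown, with the core in capitals, for Txnrd1, the gene of lowest p in the group comparison, and for Prdx1. Prdx1 and Prdx3 were the peroxiredoxins that ran most strongly against the endothelial marker level, as given below. For Txnrd1 it is the window of the listed start that holds the core. Both cores lie on the opposite strand, so they appear as their reverse complement, with GC first.
Txnrd1, chr10:82858956-82859255, + strand: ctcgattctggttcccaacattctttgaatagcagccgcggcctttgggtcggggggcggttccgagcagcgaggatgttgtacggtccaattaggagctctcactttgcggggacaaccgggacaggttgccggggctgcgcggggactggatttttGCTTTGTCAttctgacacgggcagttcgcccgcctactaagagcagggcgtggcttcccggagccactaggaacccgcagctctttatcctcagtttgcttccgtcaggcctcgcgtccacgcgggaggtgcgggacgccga
Prdx1, chr4:116685349-116685648, + strand: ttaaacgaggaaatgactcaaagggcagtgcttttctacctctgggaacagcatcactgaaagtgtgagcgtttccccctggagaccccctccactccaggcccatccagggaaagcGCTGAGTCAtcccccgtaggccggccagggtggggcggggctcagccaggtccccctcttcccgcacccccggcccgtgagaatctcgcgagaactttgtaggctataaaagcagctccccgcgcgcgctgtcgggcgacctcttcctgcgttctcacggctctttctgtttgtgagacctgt

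The metallothionein genes Mt1 and Mt2 lie side by side on chromosome 8, and the zinc-sensing factor Mtf1 acts on them through metal response elements, with the cores TGCACNC and TGCGCNC. Mt1 held 3 such cores and Mt2 held 4, on either strand and with no overlap with the antioxidant core. At least 1 was found in 25.7% of all 32851 windows and 3 or more in 1.97%. The windows of this pair, whose levels moved together across libraries, are shown with these cores in capitals.
Mt1, chr8:94178839-94179138, + strand: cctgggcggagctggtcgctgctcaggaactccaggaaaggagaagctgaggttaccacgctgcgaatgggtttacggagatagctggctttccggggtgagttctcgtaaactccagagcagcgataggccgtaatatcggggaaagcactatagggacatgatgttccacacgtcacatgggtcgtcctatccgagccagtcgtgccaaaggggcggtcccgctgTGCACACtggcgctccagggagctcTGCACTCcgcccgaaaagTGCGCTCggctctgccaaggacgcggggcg
Mt2, chr8:94172368-94172667, + strand: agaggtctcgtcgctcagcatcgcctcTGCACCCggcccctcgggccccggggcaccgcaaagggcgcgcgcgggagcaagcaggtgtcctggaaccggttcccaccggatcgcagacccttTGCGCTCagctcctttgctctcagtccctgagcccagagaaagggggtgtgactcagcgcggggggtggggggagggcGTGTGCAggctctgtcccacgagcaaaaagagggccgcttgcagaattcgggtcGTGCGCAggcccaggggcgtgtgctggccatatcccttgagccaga

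Total counts ran from 47954634 to 65065950 in INK-ATTAC libraries and from 39121503 to 59974025 in control libraries. The RPE was well represented, with 14 RPE markers such as Rpe65 and Best1 summing to 73800 to 100000 CPM, counts scaled to a common library total, in INK-ATTAC and 67000 to 89100 CPM in control. Cdkn2a, the gene that encodes p16Ink4a, had 0 to 4 counts per INK-ATTAC library and 0 to 2 per control library and was too low to test. Of 17991 genes tested with edgeR's quasi-likelihood test, 0 (0%) had an adjusted p under 0.05, 745 (4.14%) had an unadjusted p under 0.05, and DESeq2 called 6. Lens markers averaged 1.93 ± 2.55 log2 CPM in INK-ATTAC and 0.02 ± 1.67 log2 CPM in control (SD, n = 8 and 7), and skeletal muscle markers 6.24 ± 0.76 and 5.30 ± 1.08 log2 CPM. Immediate early genes, which respond to handling, averaged 3.05 ± 0.56 log2 CPM in INK-ATTAC and 3.50 ± 0.38 log2 CPM in control. Summed over their markers, lens genes took 20.6 to 2350 CPM in INK-ATTAC and 20.8 to 373 CPM in control. Gene by gene in edgeR, all 12 lens markers tested were higher in INK-ATTAC, with a median log2 fold change of 2.70, and 9 had an unadjusted p under 0.05. All 15 muscle markers were higher, 4 of them at that level, and 11 of 12 immediate early genes were lower, with 5 of the 12 at that level. The mean levels of the 3 lists did not pass a two-sided exact permutation test (p = 0.115 for lens, 0.0715 for muscle and 0.0999 for immediate early genes). The part of these markers in the values below was not tested, beyond the fits with their levels as covariates. Xist, the RNA of the inactive X chromosome, was low in INK-ATTAC 1 to 4 and control 1 to 3 and high in the other 8 libraries, so both classes were present in both groups.

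No antioxidant gene passed the test between INK-ATTAC and control. Of the 40 genes, all of which passed the filter on low counts, 0 had an adjusted p under 0.05, against 0% of all genes tested, and each adjusted p was 1. The unadjusted p was under 0.05 for 0 of 40 as well, against 4.14% of all genes, and the lowest p was 0.106, for Txnrd1. INK-ATTAC and control ranges overlapped for all 40, while 0.0222% of all genes had ranges that did not overlap. In bulk tissue, fewer cells of a type and less RNA per cell cannot be told apart. The log2 fold changes of INK-ATTAC over control lay between -0.18 (Slc7a11) and 0.20 (Sod3), with a median of 0.025 against -0.001 over all genes. They were above 0 for 27 genes and below 0 for 13, where 49.8% of all genes were above 0.

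The reported fit bounded most of these differences tightly. For 38 of the 40 genes the 95% interval lay within a change of 1.5-fold in either direction, as it did for 12237 of all 17991 genes. The exceptions were Slc7a11, from -0.75 to 0.38 on the log2 scale, and Sod3, from -0.19 to 0.59. These intervals do not cover the choice of setting. Over the other settings, given below, the log2 fold change of Gpx3, for example, ran from -0.2 to 0.36. The sign turned in at least 1 of them for 31 of the 40 genes. The median standard error was 0.087 for the 40 genes and 0.14 for all genes, which include many of lower level. Of the 40 genes, 38 had a mean of at least 10 CPM. Their median coefficient of variation over libraries was 11.4%, close to the 12.4% of all 8631 tested genes at that level. Together the 40 genes took 1.78 to 2.11% of all counts in INK-ATTAC libraries and 1.76 to 2.04% in control libraries, with medians of 1.93 and 1.85%.

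**Figure D1:**
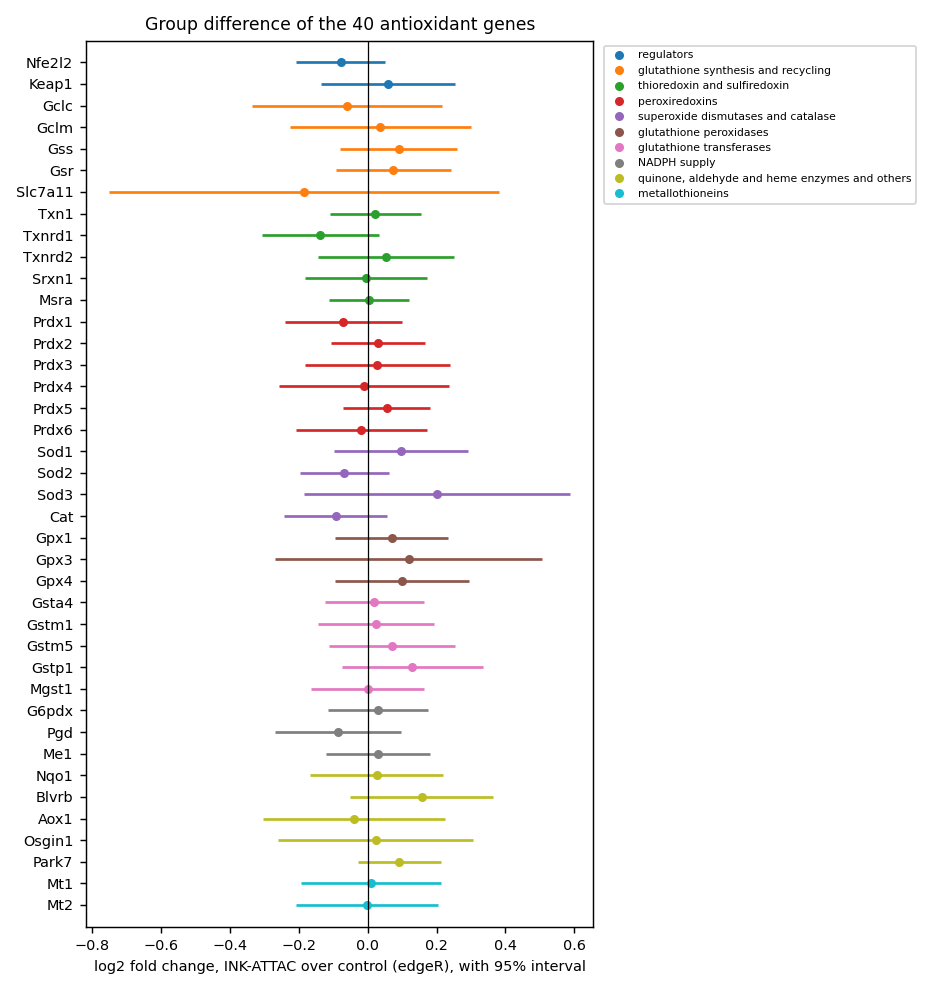
The log2 fold change of each of the 40 genes, INK-ATTAC over control, from edgeR with its 95% interval, coloured by role. All 40 intervals cross 0, and those of Slc7a11 and Sod3 reach beyond 0.585 (1.5-fold).

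Levels per length, in RPKM (CPM divided by the transcript length in kilobases), differed widely between the genes. Mt1 was highest with a mean of 6910 RPKM over the 15 libraries, followed by the lipid peroxide reductase Gpx4 (3780 RPKM), the cytosolic superoxide dismutase Sod1 (2000 RPKM) and the glutathione transferase Gstp1 (1200 RPKM). Their ranges over libraries, 5170 to 8360, 2960 to 4750, 1520 to 2610 and 880 to 1500 RPKM, did not overlap between neighbours in this order, and those of Sod1 and Gstp1 came closest. Gpx3 (922 RPKM) and Mt2 (888 RPKM) did not differ beyond their spread. The lowest were Gclm (2.76 RPKM), Aox1 (1.05 RPKM) and Slc7a11 (0.293 RPKM). Aox1 and Slc7a11 were each clear of the gene above, while the range of Gclm, 1.95 to 3.5 RPKM, overlapped that of Txnrd2, 2.82 to 4.39 RPKM. Dividing by the union of all exons in place of the longest principal transcript put Sod1 at 323 RPKM, below Gpx3 (811 RPKM), Mt2 (771 RPKM) and Gstp1 (636 RPKM), while Mt1 (3040 RPKM) and Gpx4 (2100 RPKM) stayed on top.

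**Figure D2:**
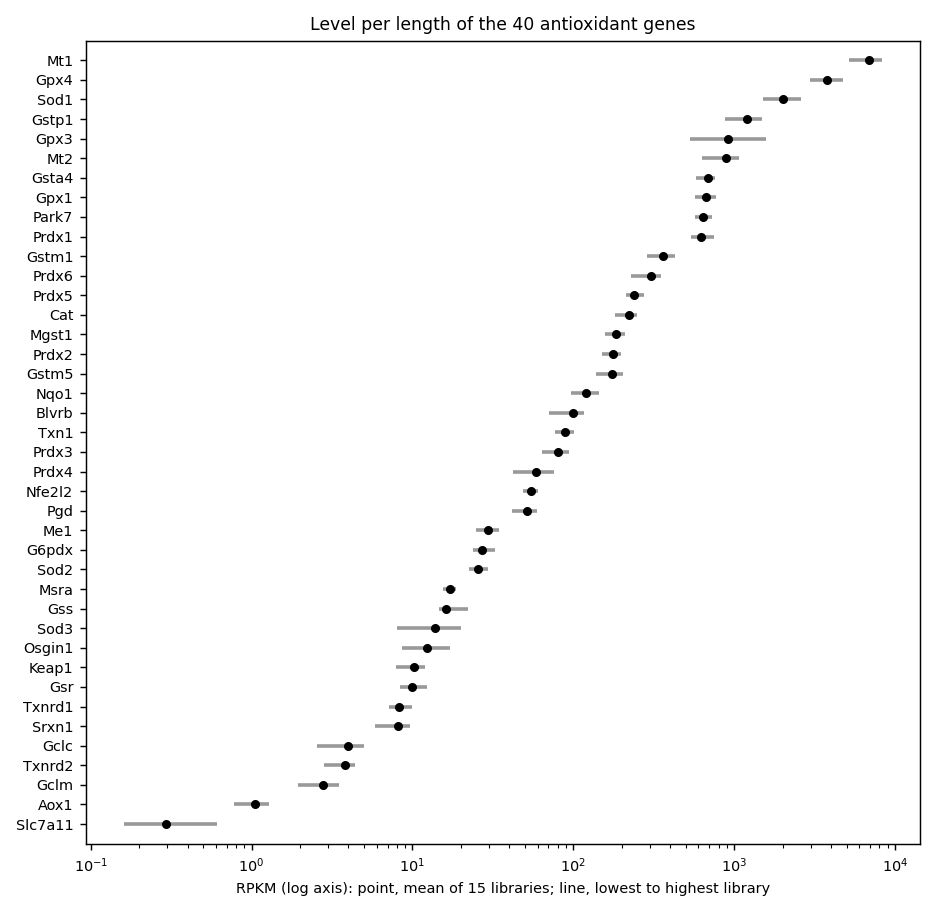
Level per length of the 40 genes in RPKM on a log axis, with the point at the mean of 15 libraries and the line from the lowest to the highest library. Mt1 (6910 RPKM) is at the top and Slc7a11 (0.293 RPKM) at the bottom.

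Among the regulators, Nfe2l2 (Nrf2; chr2:75675513-75704641, minus strand) had 119.8, 131 and 148.6 CPM as its lowest, median and highest values in INK-ATTAC libraries, against 125.4, 136.7 and 148.7 CPM in control. The groups overlapped over nearly the whole range. Its log2 fold change was -0.08 (SE 0.061), with an interval from -0.21 to 0.05 (edgeR adjusted p = 1, unadjusted p = 0.221). Keap1 (chr9:21229730-21239361, minus strand), the adaptor that sends Nrf2 to degradation, had 31.91, 38.33 and 42.93 CPM in INK-ATTAC and 28.53, 36.94 and 41.2 CPM in control. Both groups held low and high libraries, and its log2 fold change was 0.06 (SE 0.092; edgeR adjusted p = 1, unadjusted p = 0.534). Its exons overlap those of the antisense gene Gm16754, whose reads cannot be told apart without strand. Per length, Nfe2l2 stood at 54.4 RPKM and Keap1 at 10.2 RPKM.

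The genes of glutathione synthesis and recycling stood low, with the catalytic subunit of glutamate-cysteine ligase, Gclc, at 3.98 RPKM, its modifier subunit Gclm at 2.76 RPKM, glutathione synthetase Gss at 16.1 RPKM and glutathione reductase Gsr at 9.95 RPKM. Gss (chr2:155563181-155592810, minus strand) had 28.78, 31.01 and 43.56 CPM in INK-ATTAC and 28.58, 30.59 and 32.41 CPM in control. INK-ATTAC 3 was the high library, and the other INK-ATTAC values lay between 28.78 and 33.41 CPM. The log2 fold change of Gss was 0.09 (SE 0.080; edgeR adjusted p = 1, unadjusted p = 0.279), and its exons overlap those of Acss2. Gclc, Gclm and Gsr had log2 fold changes of -0.06, 0.04 and 0.07. Gclm shares exon sequence with the transcribed pseudogene Gm6061 on the same strand, where strand would not separate the reads. It also overlaps Gm17494 on the opposite strand. Slc7a11, the cystine importer that feeds glutathione synthesis, ran from 1.84 to 4.815 CPM in INK-ATTAC and from 1.489 to 5.59 CPM in control. It varied most of all 40 genes, with a coefficient of variation of 42.7% over the 15 libraries, and its log2 fold change was -0.18 (SE 0.27).

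In the thioredoxin system, Txnrd1 (chr10:82833951-82897712, plus strand), the cytosolic thioredoxin reductase, had 25.15, 27.46 and 31.5 CPM in INK-ATTAC and 25.07, 30.43 and 35.17 CPM in control. INK-ATTAC libraries filled the lower part of the range, but the lowest value of all was in control 5. Means were 27.9 ± 2.44 CPM in INK-ATTAC and 30.7 ± 3.7 CPM in control (SD, n = 8 and 7), a log2 fold change of -0.14 (SE 0.080) with an interval from -0.31 to 0.03 (edgeR adjusted p = 1, unadjusted p = 0.106). In the authors' deposited table its log2 fold change was -0.16, with limits of -0.32 and -0.002, p = 0.0473 and adjusted p = 0.769 from limma, and it was the only one of the 40 genes below an unadjusted 0.05 there, against 6.42% of its 14442 genes. Thioredoxin itself, Txn1, stood at 88.5 RPKM with a log2 fold change of 0.02. The mitochondrial reductase Txnrd2 (3.83 RPKM) had 0.05, sulfiredoxin Srxn1 (8.18 RPKM), which restores overoxidised peroxiredoxins, had -0.01, and methionine sulfoxide reductase Msra (17.2 RPKM) had 0.00. Msra was the steadiest of the 40 genes, with a coefficient of variation of 5.01%.

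The 6 peroxiredoxins, thiol enzymes that reduce hydrogen peroxide, were among the abundant genes. Prdx1 led with 625 RPKM, followed by Prdx6 (302 RPKM), Prdx5 (240 RPKM), Prdx2 (177 RPKM), the mitochondrial Prdx3 (80.2 RPKM) and the endoplasmic reticulum enzyme Prdx4 (58.9 RPKM). Their log2 fold changes lay between -0.07 (Prdx1) and 0.06 (Prdx5), 3 above and 3 below 0. Prdx1 ran from 1228 to 1539 CPM in INK-ATTAC and from 1235 to 1715 CPM in control, so the groups overlapped although the highest library was a control. Prdx2 shares exon sequence on the opposite strand with Junb and Rnaseh2a, and Prdx5 with Trmt112.

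Superoxide dismutases turn superoxide into hydrogen peroxide, which catalase (Cat) breaks down. Cat (chr2:103453849-103485160, minus strand) had 473.1, 563.5 and 647.3 CPM in INK-ATTAC and 553.1, 599.4 and 649.4 CPM in control. The lowest values were in INK-ATTAC libraries and the highest values were alike, and the log2 fold change was -0.09 (SE 0.071; edgeR adjusted p = 1, unadjusted p = 0.21). Sod2 (chr17:13006846-13040063, plus strand), the mitochondrial enzyme, had 132.6, 145 and 162.5 CPM in INK-ATTAC and 137.6, 152.9 and 172.5 CPM in control, with broad overlap. Its log2 fold change was -0.07 (SE 0.061; edgeR adjusted p = 1, unadjusted p = 0.286). The secreted enzyme Sod3 (chr5:52363791-52371418, plus strand) had 37.28, 55.12 and 74.67 CPM in INK-ATTAC and 29.85, 48.51 and 73.66 CPM in control. Both groups spread about as widely, and the log2 fold change of 0.20 had an SE of 0.18 (edgeR adjusted p = 1, unadjusted p = 0.287). Sod1 ran from 1112 to 1675 CPM in INK-ATTAC and from 971.5 to 1486 CPM in control, with a log2 fold change of 0.10.

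The 3 glutathione peroxidases, which use glutathione to reduce peroxides, had log2 fold changes of 0.07 (Gpx1), 0.12 (Gpx3) and 0.10 (Gpx4). Gpx3, the secreted form, ran from 858.9 to 2499 CPM in INK-ATTAC and from 850.6 to 1715 CPM in control, and its SE of 0.18 was the widest of the 3. Gpx4 ran from 3236 to 4554 CPM in INK-ATTAC and from 2837 to 4173 CPM in control. None of the 3 passed the test (edgeR adjusted p = 1 for each, lowest unadjusted p = 0.299).

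Glutathione transferases attach glutathione to electrophiles. Gstp1 (chr19:4035407-4037985, minus strand), the most abundant per length of the 5, had 926.1, 1052 and 1133 CPM in INK-ATTAC and 722.2, 884.4 and 1233 CPM in control. Control libraries spread on both sides of the INK-ATTAC range, with SDs of 70.9 CPM in INK-ATTAC and 181 CPM in control, and the log2 fold change was 0.13 (SE 0.097; edgeR adjusted p = 1, unadjusted p = 0.197). Gstp1 and Gstp2 are near-identical neighbours, so the division of reads between them is uncertain, and the same holds within the Gstm family. Gsta4, which acts on reactive lipid aldehydes, stood at 684 RPKM with a log2 fold change of 0.02. Gstm1 (360 RPKM), the membrane-bound Mgst1 (185 RPKM) and Gstm5 (174 RPKM) had 0.02, 0.00 and 0.07. Gstm5 overlaps the antisense gene 4933431E20Rik.

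NADPH, which glutathione and thioredoxin reductases consume, comes in part from 3 of the genes. Pgd (chr4:149149991-149166771, minus strand), of the pentose phosphate pathway, had 99.79, 110.5 and 125.5 CPM in INK-ATTAC and 92.73, 126.3 and 133 CPM in control. Both the lowest and the highest library were controls, and the log2 fold change was -0.09 (SE 0.087; edgeR adjusted p = 1, unadjusted p = 0.337). G6pdx, the first enzyme of that pathway, stood at 27 RPKM and malic enzyme Me1 at 29.5 RPKM, each with a log2 fold change of 0.03. G6pdx overlaps Ikbkg on the other strand.

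Nqo1 (chr8:107388225-107403206, minus strand), which reduces quinones and is the usual reporter of Nrf2 activity, had 160.3, 189 and 220.7 CPM in INK-ATTAC and 150, 181.6 and 223.4 CPM in control. The groups covered the same range, and the log2 fold change was 0.03 (SE 0.092), with an interval from -0.17 to 0.22 (edgeR adjusted p = 1, unadjusted p = 0.78). Blvrb (chr7:27447978-27466144, plus strand), which reduces biliverdin and flavins, had 95.32, 108.3 and 120.7 CPM in INK-ATTAC and 72.46, 97.73 and 120.1 CPM in control. Controls 4 and 5 were the low libraries, and the log2 fold change was 0.16 (SE 0.099; edgeR adjusted p = 1, unadjusted p = 0.129). Park7 (chr4:150897133-150914437, minus strand), which encodes the oxidant-sensitive protein DJ-1, had 556.3, 611.2 and 680.6 CPM in INK-ATTAC and 531.8, 575.5 and 617 CPM in control. Its INK-ATTAC libraries reached higher and the ranges overlapped between 556.3 and 617 CPM, with a log2 fold change of 0.09 (SE 0.057; edgeR adjusted p = 1, unadjusted p = 0.129). The aldehyde oxidase gene Aox1 and the stress-induced gene Osgin1, at 1.05 and 12.4 RPKM, had log2 fold changes of -0.04 and 0.02.

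The metallothioneins bind zinc and copper and scavenge oxidants. Mt1 (chr8:94179082-94180327, plus strand) had 2970, 3785 and 4588 CPM in INK-ATTAC and 2840, 3759 and 4529 CPM in control. Mt2 (chr8:94172664-94173568, plus strand) had 324.2, 465.9 and 535.4 CPM in INK-ATTAC and 382.3, 451.3 and 546.4 CPM in control. The groups were nearly superimposed, with log2 fold changes of 0.01 (SE 0.097; edgeR adjusted p = 1, unadjusted p = 0.917) for Mt1 and -0.003 (SE 0.098; edgeR adjusted p = 1, unadjusted p = 0.978) for Mt2. Mt2 shares exon sequence with the antisense gene Gm45774.

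**Figure D3:**
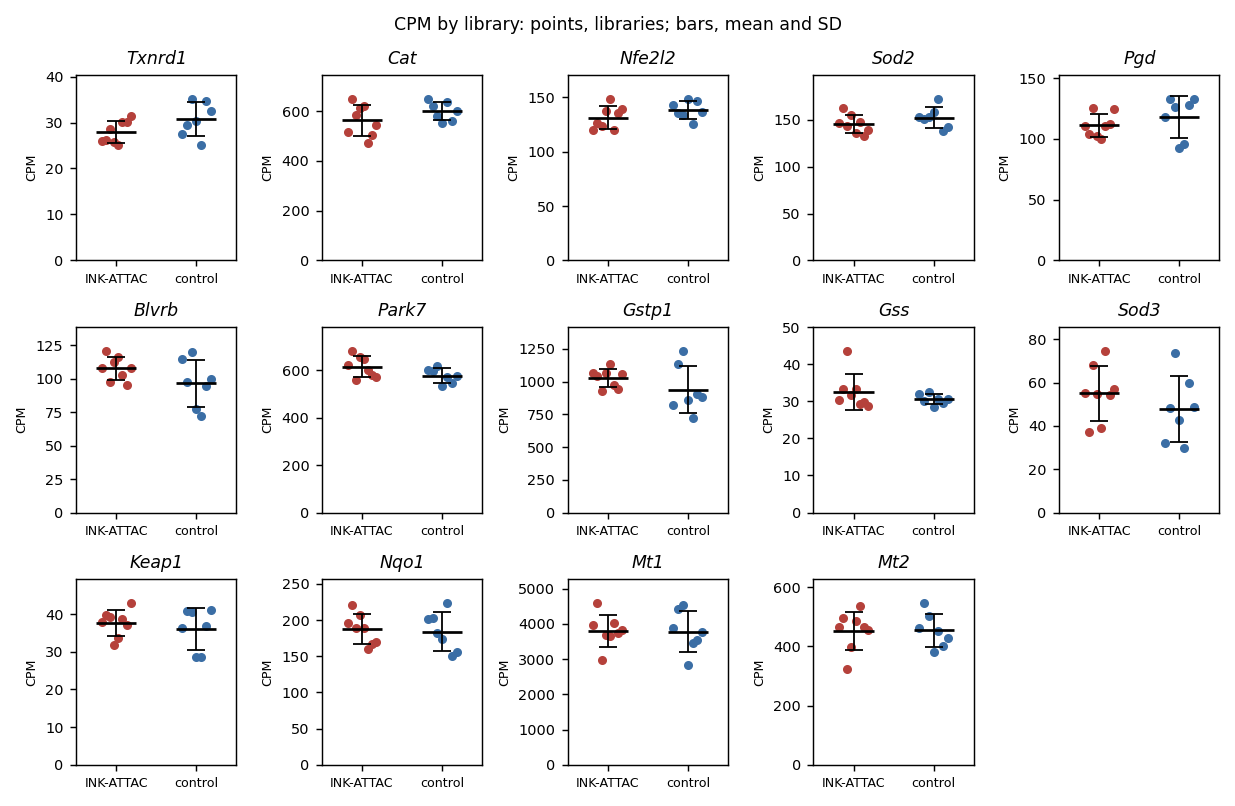
CPM in each library for the 14 genes given in full, INK-ATTAC at left and control at right of each panel, with lines at the mean and bars of 1 SD (n = 8 and 7). The groups overlap in all 14 panels.

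Whether the group difference depended on the Xist class was tested with an interaction term in edgeR. Over all genes 0 (0%) passed an adjusted p of 0.05 and 858 (4.77%) an unadjusted one. Of the 40 genes 1 was below an unadjusted 0.05, Mt2, with an interaction of 0.48 (SE 0.17; edgeR adjusted p = 0.876, unadjusted p = 0.0118). In libraries of low Xist, Mt2 had a log2 fold change of -0.26, INK-ATTAC over control, and in those of high Xist 0.22. INK-ATTAC 3, the lowest Mt2 library at 324.2 CPM, belonged to the low class and had the highest lens level of all libraries, 5.80 log2 CPM, and the part of this in the value was not tested.

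**Figure D4:**
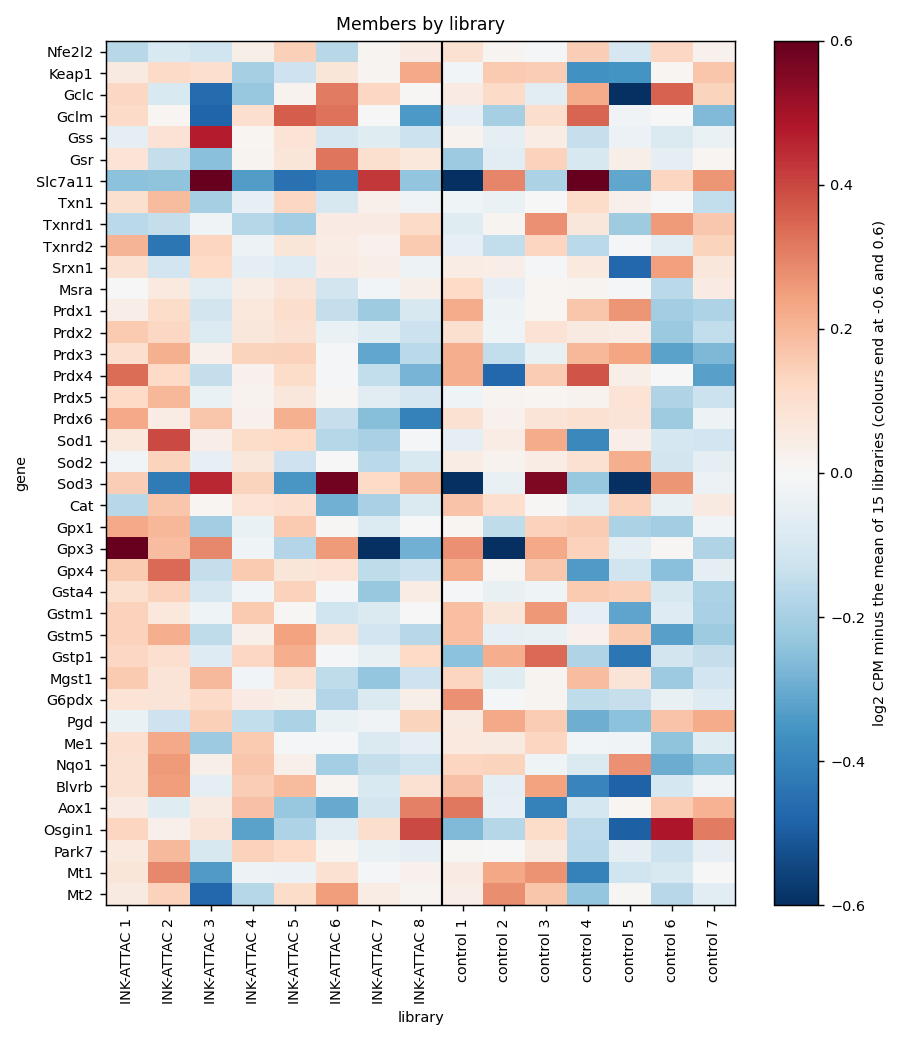
Log2 CPM of the 40 genes in each library minus the gene's mean over 15 libraries, with INK-ATTAC libraries left of the line and control right of it, and colours ending at -0.6 and 0.6. No block of genes separates the groups, and Slc7a11, Gpx3 and Sod3 vary most between libraries.

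Some of the 40 genes varied with the levels of RPE or endothelial marker genes, used here as a stand-in for tissue makeup. The makeup itself was not measured. The RPE level, the mean log2 CPM of the 14 RPE markers, was 10.22 ± 0.10 in INK-ATTAC and 10.22 ± 0.11 in control, and the endothelial level, from 10 markers such as Pecam1 and Cdh5, was 4.84 ± 0.39 and 4.84 ± 0.49 log2 CPM (SD, n = 8 and 7). The levels ran against each other over the 15 libraries (Pearson r = -0.806, permutation p = 0.00036). The cause of that opposition was not tested. These relations were looked for after the data had been seen, and p-values are from 100000 permutations, adjusted over 35934 tests of all genes against both levels.

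With the RPE level, 6 of the 40 genes had a positive r at an adjusted p under 0.05, against 2.79% of 17967 genes, and 0 a negative one, against 5.00%. They were Nqo1, Me1, Gpx4, Prdx1, Cat and Gstm5. Nqo1 was closest, with r = 0.817 (permutation p = 0.00021, adjusted p = 0.0094) and rho = 0.864 (permutation p = 0.00011, adjusted p = 0.0081). Its r was 0.846 within INK-ATTAC, 0.804 within control, 0.855 and 0.781 within low and high Xist, and 0.808 without the 2 libraries farthest from the median RPE level. The malic enzyme gene Me1 followed, with r = 0.79 (permutation p = 0.00061, adjusted p = 0.016) and rho = 0.789 (permutation p = 0.00084, adjusted p = 0.019), and 0.758 without those libraries. For the other 4, r lay between 0.68 and 0.73, 1 of the 6 passed by r and not by rho, and all 6 were positive within both groups. At a fixed r of 0.6 or more the count was 12 of 40, against 5.66% of all genes, and at -0.6 or less it was 0 of 40, against 8.62%.

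With the endothelial level, 8 of the 40 genes had a negative r at an adjusted p under 0.05, against 4.95% of all genes, and 0 a positive one, against 7.72%. They were 4 peroxiredoxins (Prdx1, Prdx2, Prdx3 and Prdx5), Sod2, Gsta4, Gstm5 and Nqo1, and all 8 passed by rho as well. The mitochondrial peroxiredoxin Prdx3 had r = -0.894 (permutation p = 2e-05, adjusted p = 0.0036) and rho = -0.921 (permutation p = 2e-05, adjusted p = 0.0047). Prdx1 had r = -0.878 (permutation p = 2e-05, adjusted p = 0.0036) and rho = -0.904 (permutation p = 1e-05, the smallest that 100000 permutations can give, adjusted p = 0.004). Within INK-ATTAC and control, r was -0.829 and -0.947 for Prdx3 and -0.817 and -0.954 for Prdx1. Without the 2 libraries farthest from the median endothelial level it was -0.867 and -0.903. At a fixed r of -0.6 or less the count was 11 of 40, against 8.82% of all genes, and at 0.6 or more it was 4 of 40, against 11.8%. Genes on the other side of this relation fell short of the adjusted threshold, Sod3 with r = 0.662 (permutation p = 0.0068, adjusted p = 0.059) and Txnrd1 with r = 0.645 (permutation p = 0.0096, adjusted p = 0.072).

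A further 12 relations were examined, 6 between members of the 40 and 6 between a gene and a marker level. Mt1 and Mt2 moved together, with r = 0.837 (permutation p = 0.00013, adjusted p = 0.00156) and rho = 0.829 (permutation p = 0.0003, adjusted p = 0.0036). Their r was 0.834 within INK-ATTAC, 0.897 within control, 0.956 and 0.778 within low and high Xist, and 0.705 without the 2 libraries farthest from the median of Mt1. Nqo1 and Txnrd1, both taken as Nrf2 targets, ran in opposite directions, with r = -0.777 (permutation p = 0.00075, adjusted p = 0.0045) and rho = -0.779 (permutation p = 0.00107, adjusted p = 0.00642). The opposition was present within INK-ATTAC (r = -0.8), within control (r = -0.831) and in both Xist classes (r = -0.74 and -0.9), and r was -0.672 without the 2 libraries farthest from the median of Nqo1. Control 5, which was highest in Nqo1 at 223.4 CPM, was lowest in Txnrd1 at 25.07 CPM. Nqo1 had r = -0.757 and Txnrd1 r = 0.645 with the endothelial level, and the part of tissue makeup in their opposition was not tested.

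Gstp1 and Gstm1 had r = 0.67 (permutation p = 0.00622, adjusted p = 0.0249) and rho = 0.596 (permutation p = 0.0208, adjusted p = 0.083), so they passed by r and not by rho. Their r was 0.603 within INK-ATTAC, 0.702 within control, and 0.311 and 0.855 within low and high Xist. It was 0.314 without the 2 libraries farthest from the median of Gstp1, so its size depended on the libraries included. Txnrd1 and Srxn1 had r = 0.562 (permutation p = 0.0192, adjusted p = 0.0577). Nqo1 and Nfe2l2 fell short of the threshold (r = -0.283, permutation p = 0.307, adjusted p = 0.525), and the ligase subunits Gclc and Gclm had r = 0.367 (permutation p = 0.176, adjusted p = 0.351). The other 6 relations, which set Prdx2 and Blvrb against erythrocyte, Me1 against adipocyte, Gpx3 against RPE and both metallothioneins against immediate early levels, had adjusted p-values of 0.34 or more.

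**Figure D5:**
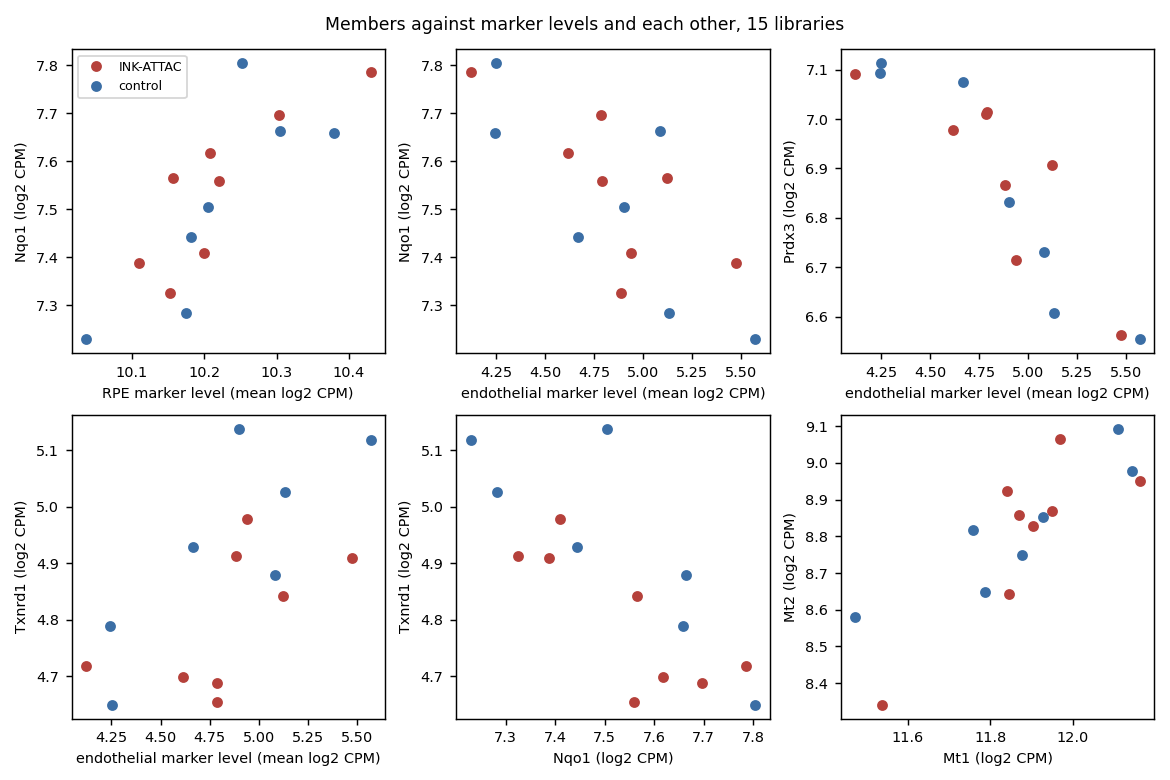
Each point is 1 of the 15 libraries, in log2 CPM, with INK-ATTAC and control in separate colours. Nqo1 climbs with the RPE level (r = 0.817) and Prdx3 drops with the endothelial level (r = -0.894), Nqo1 and Txnrd1 run against each other (r = -0.777), and Mt1 and Mt2 run together (r = 0.837).

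A further 96 genes of the same pathways were counted in the same fit. Of these, 0 had an adjusted p under 0.05 and 7 (7.29%) an unadjusted p under 0.05, against 4.14% of all genes, 3 higher and 4 lower in INK-ATTAC, against 2.20% and 1.94%. Their median log2 fold change was 0.005, with 50 of 96 above 0. The 3 of lowest p in each direction are named, and each had an edgeR adjusted p of 1. On the lower side, log2 fold changes were -0.24 (SE 0.073) for Abcc4, an exporter of organic anions and nucleotides, -0.27 (SE 0.10) for Nnt, a mitochondrial source of NADPH, and -0.22 (SE 0.096) for Rpe, an epimerase of the pentose phosphate pathway. On the higher side they were 0.35 (SE 0.12) for the membrane-bound transferase Mgst3, 0.17 (SE 0.078) for the mitochondrial isocitrate dehydrogenase Idh2 and 0.23 (SE 0.11) for Gstp2. Abcc4 had the lowest p of the 96 (edgeR adjusted p = 1, unadjusted p = 0.0037).

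Values by library show how far these went. Abcc4 ran from 20.88 to 27.6 CPM in INK-ATTAC, with a median of 22.66, and from 23.24 to 30.25 CPM in control, with a median of 28.21. Mgst3 had 67.04, 84.48 and 118.4 CPM in INK-ATTAC and 59.89, 66.91 and 86.5 CPM in control. For both genes the ranges overlapped, and 4 of the 8 INK-ATTAC libraries lay within the control range. Hmox1, the heme oxygenase that is a classical Nrf2 target, had 33.31, 41.77 and 50.7 CPM in INK-ATTAC and 40.69, 45.27 and 52.23 CPM in control, with a log2 fold change of -0.17 (SE 0.081; edgeR adjusted p = 1, unadjusted p = 0.0538).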

How the data were processed

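RNA from the RPE/choroid complex was collected in TRIzol, purified on NucleoSpin columns and amplified as SMARTer cDNA, per the labels' protocols. The submitters' processing notes name bcl2fastq, DRAGEN, edgeR, limma and build GRCm38. Not given in the sources used here are tool versions, the counter, whether it used strand, and the release of the gene annotation. The authors deposited counts per Ensembl gene, which are whole numbers and were taken as raw and not normalized. The file held 40757 entries, of which 276 repeats were collapsed. The authors also deposited a comparison table with log2 fold changes, confidence limits, p-values and adjusted p-values, and a B column that is a log-odds score per the file headers and was not used here.

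Libraries were grouped by their labels. In edgeR 4.0.16 under R 4.3.3, genes were filtered with filterByExpr by group and libraries scaled by TMM. INK-ATTAC was compared with control by the two-sided quasi-likelihood F-test, and p-values were adjusted by Benjamini-Hochberg across the 17991 genes kept, at 0.05. SE is the absolute log2 fold change over the square root of F. CPM are on TMM library sizes, log2 CPM use a prior count of 2, and RPKM divide by the longest principal transcript of a GENCODE annotation of GRCm38. Depth per library was 39121503 to 65065950 counts, and the common biological coefficient of variation was 0.265. SMARTer counts carry no molecular identifiers, so copies of a molecule cannot be told from separate molecules. No library repeated another of its group (lowest chi-square per gene 29.77). The fit was also run on counts simulated from its own dispersions, and the outcome is not given here. The simulated counts held no differences in tissue makeup or Xist class, so that run cannot show how the test behaves on these libraries.

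The 40 genes, the further pathway list and the marker lists were chosen with earlier results of these data known. Full values go to the 5 genes of lowest p in each direction and to Nfe2l2, Keap1, Nqo1, Mt1 and Mt2, and other genes get a level and a fold change. From the further list, the 3 of lowest p in each direction were named, and Hmox1 was added after its values were seen. Alternatives were DESeq2 1.42.0, RLE scaling, 2 other filters, limma-voom 3.58.1 with and without quality weights, covariates for marker levels, Xist classes apart, a block by title number and leaving out each library. An immediate early covariate, a block by description number, leaving out controls 4 and 5 together (their mitochondrial shares were 3.28 and 3.67%) and exon union lengths were chosen after seeing the data.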

Additional observations from a re-analysis of the deposited data

Results flagged for a closer look

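In each group, the highest or lowest library of each of the 40 genes was compared with its nearest neighbour. Over 80 such groups, 6 stood far from the rest of their group, where chance alone gives about 1 in 20. Gss, glutathione synthetase, was at 43.56 CPM in INK-ATTAC 3, with the next library at 33.41 CPM. The mitochondrial thioredoxin reductase Txnrd2 was at 8.1 CPM in INK-ATTAC 2, with the next at 10.74 CPM. The cystine importer Slc7a11 was at 5.59 CPM in control 4, with the next at 3.094 CPM. Srxn1, sulfiredoxin, was at 16.51 CPM in control 5, with the next at 22.72 CPM. The peroxiredoxin Prdx6 was at 618 CPM in control 6, with the next at 702.7 CPM. G6pdx, glucose-6-phosphate dehydrogenase, was at 86.32 CPM in control 1, with the next at 72.24 CPM. None of these libraries was left out of the values given.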

How the results depend on the processing

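No setting brought any of the 40 genes past an adjusted p of 0.05, and the lowest adjusted p of any of them in any setting was 0.718. Over all genes, DESeq2 called 6, limma-voom with quality weights 2 and the fit without controls 4 and 5 called 1, against 0. The count of the 40 genes at an unadjusted p under 0.05, 0 in the reported fit, was 1 with limma-voom and quality weights (Txnrd1), 1 with the skeletal muscle level as a covariate (Prdx1), 3 in libraries of high Xist alone (Gstp1, Blvrb and Mt2), 4 with the immediate early level as a covariate (Prdx1, Sod2, Sod3 and Cat) and 2 without controls 4 and 5 (Txnrd1 and Pgd). Leaving out 1 library at a time gave 0 to 2, with 2 (Gstp1 and Blvrb) without control 3 and 1 (Txnrd1) without control 5. The shares of all genes below an unadjusted 0.05 in these fits are not given here. The counts are therefore not read as a result particular to the 40 genes. The median log2 fold change of the 40 genes stayed between -0.014 and 0.043. The cause of these changes was not tested. Slc7a11 had the fewest counts of the 40 genes, at 73 to 238 per library, and the part of depth in its spread was not tested. Aox1, at 170 to 327 counts per library, had a coefficient of variation of 14.6%, against 42.7% for Slc7a11.

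Libraries of the 2 groups share title numbers 1 to 7. Same-numbered libraries deviated together at r over 0.1 in 4 of 7 pairs (r from -0.101 to 0.292). With 7 controls to choose from, 4 of 7 INK-ATTAC libraries correlated best with their own number, where random matching would give about 1 of 7. Whether the title numbers mark pairs or a shared batch was not tested. The reported fit did not pair them, and fits with the number as a block are given below. The descriptions number the libraries differently, so that control 1 shares its number with INK-ATTAC 2. By those numbers all 7 pairs were of one Xist class, against 6 of 7 by title, but 2 of 7 pairs had r over 0.1 (r from -0.151 to 0.231) and 1 correlated best with its own number. With the replicate block by description number, chosen after seeing the data, 0 of the 40 genes were below an unadjusted 0.05, and their median log2 fold change was 0.001. With the replicate block by title number 1 of the 40 genes, Txnrd1 (log2 fold change -0.16; edgeR adjusted p = 0.961, unadjusted p = 0.0306), was below an unadjusted 0.05.

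The sign of the log2 fold change turned in at least 1 setting for 31 of the 40 genes. The 9 that did not were Cat, Gpx4, Gss, Nfe2l2, Park7, Sod2, Sod3, Txnrd1 and Txnrd2. The log2 fold changes of opposite sign follow. In DESeq2 it was Mgst1 (-9e-04). Under RLE scaling it was Mgst1 (-0.00092). Without a filter on low counts it was Mt2 (0.00012). With limma-voom it was Srxn1 (0.0014), Prdx4 (0.0057) and Mgst1 (-8.7e-05). With limma-voom and quality weights it was Keap1 (-0.0048), Prdx4 (0.11), Osgin1 (-0.0016) and Mt1 (-0.023). With the rod photoreceptor level as a covariate it was Txn1 (-3.4e-05), Msra (-0.00055), Prdx4 (0.0069), Prdx6 (0.012), Osgin1 (-0.023) and Mt1 (-0.041). With the skeletal muscle level as a covariate it was Gclc (0.0026), Gclm (-0.041), Slc7a11 (0.085), Txn1 (-0.014), Srxn1 (0.048), Msra (-0.023), Prdx2 (-0.036), Prdx3 (-0.11), Gpx1 (-0.0069), Gpx3 (-0.2), Gsta4 (-0.064), Gstm1 (-0.024), Gstm5 (-0.022), Mgst1 (-0.073), G6pdx (-0.01), Me1 (-0.03), Nqo1 (-0.042), Mt1 (-0.00025) and Mt2 (0.0023). With the lens level as a covariate it was Gclc (0.034), Msra (-0.0076), Prdx3 (-0.01), Gpx3 (-0.062), Gstm1 (-0.043), Mgst1 (-0.067), G6pdx (-0.038), Nqo1 (-0.0072), Osgin1 (-0.02) and Mt2 (0.077). With the erythrocyte level as a covariate it was Txn1 (-0.007), Gsta4 (-0.0038), Mgst1 (-0.0096) and Mt2 (0.004). With the RPE level as a covariate it was Mgst1 (-0.00025). With the Xist level as a covariate it was Mgst1 (-0.0089). In libraries of low Xist alone it was Keap1 (-0.075), Gclm (-0.00067), Gsr (-0.022), Slc7a11 (0.29), Msra (-0.018), Prdx4 (0.096), Prdx6 (0.054), Gstm1 (-0.088), Gstp1 (-0.052), G6pdx (-0.02), Me1 (-0.0043), Blvrb (-0.012), Aox1 (0.073) and Mt1 (-0.17). In libraries of high Xist alone it was Gclc (0.05), Prdx3 (-0.065), Gpx3 (-0.18), Gsta4 (-0.021), Mgst1 (-0.093), Nqo1 (-0.04), Osgin1 (-0.013) and Mt2 (0.22). With the replicate block by title number it was Srxn1 (0.0098), Prdx4 (0.043), Prdx6 (0.024) and Osgin1 (-0.0098). With the replicate block by description number it was Gclm (-0.00066), Txn1 (-0.0015), Msra (-0.0026), Gpx3 (-0.037), Gsta4 (-0.0025), Mgst1 (-0.032) and Mt1 (-0.001). With the immediate early level as a covariate it was Gclc (0.039), Gclm (-0.054), Slc7a11 (0.052), Txn1 (-0.025), Srxn1 (0.091), Msra (-0.013), Prdx2 (-0.032), Prdx3 (-0.1), Prdx5 (-0.015), Sod1 (-0.0024), Gpx3 (-0.038), Gsta4 (-0.058), Gstm5 (-0.045), Mgst1 (-0.058), Pgd (0.006), Me1 (-0.033), Nqo1 (-0.076) and Mt1 (-0.027). Without controls 4 and 5 it was Keap1 (-0.058), Slc7a11 (0.0094), Prdx1 (0.0038), Prdx4 (0.073), Prdx6 (0.0061), Gstm1 (-0.039), G6pdx (-0.02), Osgin1 (-0.089) and Mt1 (-0.083). Leaving out 1 library at a time, the sign changed for 19 genes, over ranges of Aox1 (-0.1 to 0.0028), Gclm (-0.028 to 0.1), Gpx3 (-0.028 to 0.21), Gsta4 (-0.011 to 0.05), Gstm1 (-0.031 to 0.074), Me1 (-0.012 to 0.062), Mgst1 (-0.033 to 0.033), Msra (-0.02 to 0.021), Mt1 (-0.048 to 0.059), Mt2 (-0.041 to 0.055), Nqo1 (-0.022 to 0.069), Osgin1 (-0.053 to 0.12), Prdx2 (-0.0011 to 0.05), Prdx3 (-0.02 to 0.07), Prdx4 (-0.092 to 0.057), Prdx6 (-0.065 to 0.03), Slc7a11 (-0.38 to 0.057), Srxn1 (-0.081 to 0.038) and Txn1 (-0.015 to 0.051).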

Other observations

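The further pathway genes were also examined for a group difference that depended on the Xist class, with 4 of 96 below an unadjusted p of 0.05 in edgeR and 0 below an adjusted 0.05, against 4.77% and 0% of all genes. Nnt, the mitochondrial transhydrogenase, had the lowest p, with an interaction of -0.45 (SE 0.12; edgeR adjusted p = 0.876, unadjusted p = 0.00185). In libraries of high Xist it had 61.14, 49.85, 54.62 and 52.22 CPM in INK-ATTAC 5 to 8, against 76.88, 78.08, 77.81 and 78.43 CPM in control 4 to 7. Those 4 INK-ATTAC libraries lay below every other library, and the log2 fold change there was -0.52 (edgeR adjusted p = 0.96, unadjusted p = 0.000199). In libraries of low Xist it had 72.04, 75.99, 85.21 and 72.2 CPM in INK-ATTAC 1 to 4 and 81.18, 83.21 and 75.65 CPM in control 1 to 3, a log2 fold change of -0.07. The other 3 were the ferritin subunits Ftl1 (interaction 0.29) and Fth1 (0.48), which store iron, and the mitochondrial aldehyde dehydrogenase Aldh2 (0.38), each with an edgeR adjusted p = 0.876. These genes were singled out after their values were seen.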
